A study of Mus musculus with 6 samples.

Results

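The gamma-crystallins are the 8 mouse genes Cryga, Crygb, Crygc, Crygd, Cryge, Crygf, Crygn and Crygs, and they were followed here through every probe set of the array that is annotated to one of them. Of these 8 genes, 7 had a probe set and 6 had a probe set of their own, among 12393 genes with a probe set of their own on the array. Cryga, Crygb, Crygd, Crygf, Crygn and Crygs had 1 own probe set each. A further probe set was shared by Crygb and Crygc and is given apart, so Crygc was measured only together with Crygb. No probe set used here carries the symbol of Cryge. The comparison sets 3 Hsf4-null lens samples against 3 wild-type lens samples, both from newborn mice labelled as strain ICR. Hsf4-null animals lack heat shock transcription factor 4, a DNA-binding factor needed for the terminal differentiation of lens fiber cells. The methods call the samples biological triplicates, and neither the labels nor the methods say how many lenses or animals went into each. The methods name wild-type littermates for other experiments of the study, but the sources used here do not give them for these lenses.

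Gamma-crystallins are small water-soluble structural proteins that pack at very high concentration in the elongated fiber cells of the lens and give it its refractive power. They share the Greek key fold with the beta-crystallins, whereas alpha-crystallins are related to small heat shock proteins and act as chaperones. In the mouse, Cryga to Crygf are fiber cell genes, Crygs also continues to be made in the growing lens after birth, and Crygn is a divergent member with features of both the beta and the gamma families. Inherited mutations in several of these genes cause cataract, and cataract is also what mice without Hsf4 develop.

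In the RefSeq annotation of GRCm38.p6, Cryge, Crygd, Crygc, Crygb and Cryga lie in this order on chromosome 1, from position 65048555 to 65103363, with gaps of 6.69 to 18.1 kb between neighbours. Crygf lies 823 kb beyond Cryga, at 65926522 to 65928311. Crygn is on chromosome 5 (24751002 to 24757848) and Crygs on chromosome 16 (22805203 to 22811410). These coordinates come from the annotation and not from the array file. RefSeq promoter sequences, 250 bases before to 50 after each start site, were found for all 8 genes, and 86 bases around the TATA-like box are printed for 5 of them. Crygf is shown because it had the largest difference between the groups, Cryge because its window is most like that of Crygf and it had no probe set here, Crygd and Cryga as measured members of the same gene cluster, and Crygs as the member on another chromosome. The Cryge window lies inside the annotated span of its gene, whereas those of the other members lie outside theirs. Capitals mark the box, which reads TATATA except in Crygs, and CTTTTGTG where it is present.
Crygf, chr1:65926420-65926505, plus strand: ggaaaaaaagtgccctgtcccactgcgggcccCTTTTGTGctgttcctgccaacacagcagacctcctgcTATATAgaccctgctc
Cryge, chr1:65051166-65051251, minus strand: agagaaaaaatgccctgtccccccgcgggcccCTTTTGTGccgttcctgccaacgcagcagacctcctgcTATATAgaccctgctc
Crygd, chr1:65063455-65063540, minus strand: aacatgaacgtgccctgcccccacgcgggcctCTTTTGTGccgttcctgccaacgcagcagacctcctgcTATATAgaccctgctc
Cryga, chr1:65103387-65103472, minus strand: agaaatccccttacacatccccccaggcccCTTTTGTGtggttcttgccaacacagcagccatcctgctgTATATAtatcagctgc
Crygs, chr16:22811420-22811505, minus strand: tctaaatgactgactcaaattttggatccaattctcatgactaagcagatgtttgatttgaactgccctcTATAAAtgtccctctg

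Aligned at the box without gaps, the Cryge window had the same base as that of Crygf at 79 of 86 positions and the Crygd window at 73. The windows of Crygc (46), Crygb (37), Cryga (36), Crygn (26) and Crygs (26) had fewer positions in common with Crygf, and an insertion or deletion lowers such a count. The letters TATATA occurred in the promoters of 7 of the 8 genes, all but Crygs, and in 5.67% of 32851 promoters. CTTTTGTG, searched on both strands like every motif here, occurred in 5 of the 8 (Cryga, Crygc, Crygd, Cryge and Crygf) and in 1.37% of all promoters. Heat shock factors bind inverted repeats of GAA. The arrangement GAANNTTC was in none of the 8 promoters of 300 bases, and in 7.86% of all promoters. The same units in the other order, TTCNNGAA, was also in none of the 8, and in 8.52% of all. The windows and letters were picked after the sequences had been seen, and a match or its absence describes these windows only.

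The value of each probe set is an intensity that the authors normalized by RMA, which corrects background, equalizes the distributions of the arrays and summarizes the probes of a probe set. Log2 was taken here, so a difference of 1 is a doubling. The targeted gene checks the labels: Hsf4 was at 4.26, 4.09 and 3.78 in Hsf4-null lenses, against 9.09, 9.39 and 9.56 in wild-type lenses, a log2 fold change of -5.30. Whether its probe set lies in the deleted part was not given in the sources used here. Arrays of 1 group correlated at 0.991 to 0.994 and arrays of different groups at 0.982 to 0.990. Of 6 listed fiber cell markers 3 were measured, Cryaa, Mip and Bfsp1, and they were bright in both groups. Their log2 fold changes were -0.01 for Cryaa, -0.14 for Mip and -1.65 for Bfsp1. The mean of the 3 log2 intensities was 12.85 to 13.02 on the Hsf4-null arrays, against 13.52 on the wild-type arrays. Of 22626 probe sets, 602 (2.66%) were called by limma, which fits each probe set and moderates its variance with those of the others, where the p adjusted after Benjamini and Hochberg was under 0.05. Of all tested, 439 (1.94%) were called as lower in Hsf4-null lenses.

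Transcripts of the gamma-crystallins were among the brightest on every array of both genotypes, and the largest difference between the genotypes was that of Crygf, at 0.740 of its wild-type level in Hsf4-null lenses. In RNA from whole lenses, fewer fiber cells and less transcript per cell cannot be told apart. None of the 7 probe sets passed limma at an adjusted p under 0.05, beside the 2.66% called over all probe sets. At an unadjusted p under 0.05 this count was 1, Crygf, beside 3480 of all 22626. Each of the 7 had a mean that was lower in Hsf4-null lenses, with a median log2 fold change of -0.06, where the median over all probe sets was 0.00. For the 6 probe sets other than Crygf these differences, from -0.10 to -0.03, had standard errors of 0.09 from limma. Those errors are moderated with the variances of all probe sets, whose median SD within a group was 0.16. The SDs of the 6 themselves were 0.02 to 0.09 in Hsf4-null and 0.02 to 0.06 in wild-type lenses.

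Crygf encodes gamma-F-crystallin. Its log2 intensity was 13.06, 13.36 and 13.15 in Hsf4-null lenses, against 13.63, 13.61 and 13.64 in wild-type lenses. All 3 Hsf4-null arrays lay below all 3 wild-type arrays, and the Hsf4-null values were spread out where the wild-type values were close together. The groups averaged 13.2 ± 0.16 (SD, n = 3) in Hsf4-null lenses and 13.6 ± 0.01 (SD, n = 3) in wild-type lenses. This is a log2 fold change of -0.43 (standard error 0.11, 95% confidence interval -0.69 to -0.18), or 0.740 of the wild-type level (interval 0.622 to 0.880). Its adjusted p was 0.0955 from limma over all probe sets, so the difference did not pass. It passed the methods' t-test joined with SAM, a permutation-based filter that was rewritten here from its published description. It also passed where limma lets the expected spread depend on brightness (trended variance, adjusted p = 0.00975), and it did not pass in the 16 other alternatives with an adjusted p, from 0.0615 to 0.267. The probe set bears the suffix x, which marks probes that may also match similar sequences, so signal from other gamma-crystallins, Cryge among them, cannot be told apart from that of Crygf.

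**Figure D1:**
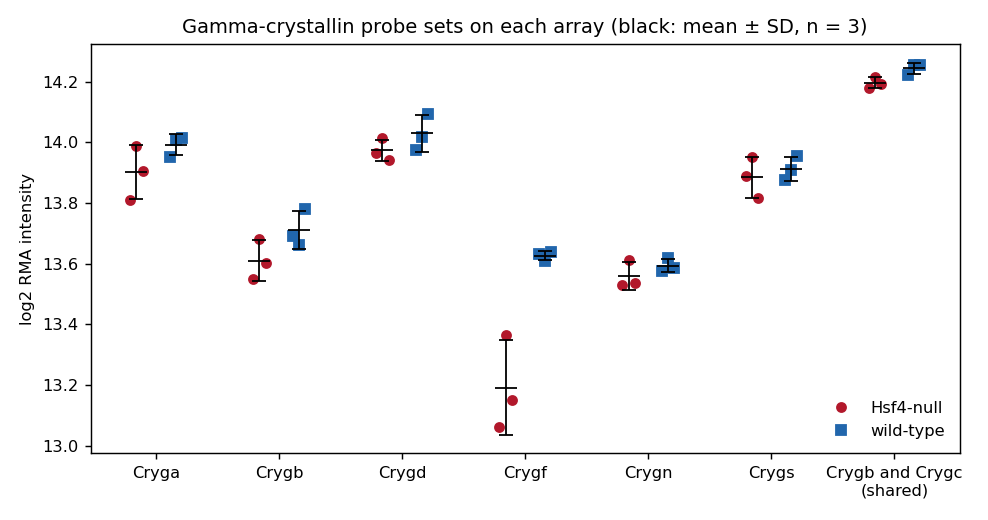
Log2 RMA intensity (vertical axis) of the 7 gamma-crystallin probe sets on each of the 3 Hsf4-null (red circles) and 3 wild-type (blue squares) arrays, with mean ± SD in black. Crygf lies at 13.06 to 13.36 in Hsf4-null and at 13.61 to 13.64 in wild-type lenses, while the groups of the other own probe sets overlap.

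Lens samples can carry tissue from around the lens. Of 5 measured pigment cell markers 0 passed, and the mean of their log2 intensities was 6.50 to 7.48 on the Hsf4-null arrays, against 5.59 to 6.80 on the wild-type arrays, with a median log2 fold change of 1.27. For 5 retina markers these means were 4.84 to 6.69 in Hsf4-null and 4.92 to 6.47 in wild-type lenses, for 5 vascular markers 6.65 to 6.94 in Hsf4-null and 6.42 to 6.72 in wild-type lenses, and for 3 blood markers 4.76 to 4.92 in Hsf4-null and 4.32 to 4.52 in wild-type lenses. For 4 lens epithelium markers they were 8.35 to 8.61 in Hsf4-null and 8.66 to 8.69 in wild-type lenses, and for 5 cornea and skin markers 3.85 to 4.07 in Hsf4-null and 3.93 to 4.15 in wild-type lenses. The epithelium means lay lower, and the blood means higher, on each Hsf4-null array than on any wild-type array, and the means of the other 4 lists overlapped. Single markers of these 2 lists differed in direction. Log2 fold changes were -0.38 for Foxe3, -0.22 for Cdh1, -0.44 for Npnt and 0.17 for Pax6. For blood they were 0.61 for Alas2, 0.72 for Slc4a1 and -0.14 for Hba-a1. Foxe3 and Hba-a1 were dim, with group means of 3.68 to 4.18, under the array medians of 5.22 to 5.38. For each marker the brightest of its probe sets was taken, and none of these passed limma, but 1 of the 4 other probe sets of the epithelium marker Npnt did (log2 fold change -0.88, adjusted p = 0.0147). The file holds no detection calls. The part of such tissue in the lower Crygf values was not tested.

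The probe set shared by Crygb and Crygc, which encode gamma-B- and gamma-C-crystallin, held rank 2 or 3 of all probe sets on each array. It was at 14.18, 14.22 and 14.19 in Hsf4-null lenses, against 14.22, 14.25 and 14.25 in wild-type lenses. Here too every Hsf4-null array lay below every wild-type array, but by little, and the mean difference was -0.05 (standard error 0.09, interval -0.25 to 0.15, adjusted p = 0.843 from limma). Such separation without overlap, with all Hsf4-null arrays on the low side, was found for 2 of the 7 gamma-crystallin probe sets and for 11.7% of all probe sets tested. The own probe set of Crygb was at 13.55, 13.68 and 13.60 in Hsf4-null lenses, against 13.69, 13.66 and 13.78 in wild-type lenses, and its groups overlapped (log2 fold change -0.10, standard error 0.09, adjusted p = 0.669).

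Cryga, at the end of the cluster nearest to Crygf, encodes gamma-A-crystallin. It was at 13.81, 13.99 and 13.90 in Hsf4-null lenses, against 13.95, 14.01 and 14.01 in wild-type lenses. The lowest 2 values were both Hsf4-null, but Hsf4-null replicate 2 lay above wild-type replicate 1. The log2 fold change was -0.09 (standard error 0.09, interval -0.31 to 0.13).
Crygd, or gamma-D-crystallin, was at 13.96, 14.01 and 13.94 in Hsf4-null lenses, against 13.97, 14.02 and 14.09 in wild-type lenses. Its groups overlapped, and their means differed by -0.06 on the log2 scale (standard error 0.09, interval -0.27 to 0.16). The promoter window of Crygd is the one most like that of Crygf among the measured members, as printed above. Whether the differences of Crygd and Crygf differ from each other was not tested.

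Crygs and Crygn, which lie outside the cluster, had the smallest differences. Crygs, gamma-S-crystallin, was at 13.89, 13.95 and 13.81 in Hsf4-null lenses, against 13.88, 13.91 and 13.95 in wild-type lenses. The groups were fully mixed, at a log2 fold change of -0.03 (standard error 0.09, interval -0.24 to 0.19), which turned to 0.00596 without Hsf4-null replicate 3. Crygn was at 13.53, 13.61 and 13.54 in Hsf4-null lenses, against 13.57, 13.62 and 13.59 in wild-type lenses. Its groups overlapped as well, and the means differed by -0.03 (standard error 0.09, interval -0.24 to 0.17). For the 6 probe sets other than Crygf, adjusted p ran from 0.669 to 0.916 by limma. Their intervals from limma reach, over the 6 of them, from 0.802 to 1.14 times the wild-type level. A change within its own interval is not excluded for any of them. The width of these intervals rests on variances that limma moderated with those of all probe sets.

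The arrays differed in the same way over most of the family. Within the Hsf4-null group, replicate 2 was the highest array for 7 of 7 probe sets, and replicate 1 was the lowest for 5. Within the wild-type group, replicate 3 was the highest for 5 and replicate 1 the lowest for 5. In their groups, the retina markers Otx2 and Neurod1 were lowest on Hsf4-null replicate 2 (5.90 and 5.88) and wild-type replicate 3 (6.34 and 5.53). So was Crx (4.27 and 4.20), but Nrl only in the Hsf4-null group, and Rcvrn in neither. Among wild-type arrays Otx2 and Neurod1 were highest on replicate 2 (8.90 and 8.85), not on replicate 1. Whether such tissue bears on the array order of the family was not tested. The SD of Crygf over the Hsf4-null arrays, 0.16, was above those of the other 6 probe sets, 0.02 to 0.09, whereas in wild-type lenses its SD of 0.01 was below theirs, 0.02 to 0.06. Of the 226 probe sets in the brightest 1% by the mean of all arrays, 5 had a larger SD over the Hsf4-null arrays than Crygf. Without Hsf4-null replicate 2 the log2 fold change of Crygf was -0.52, and without Hsf4-null replicate 1 it was -0.37.

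**Figure D2:**
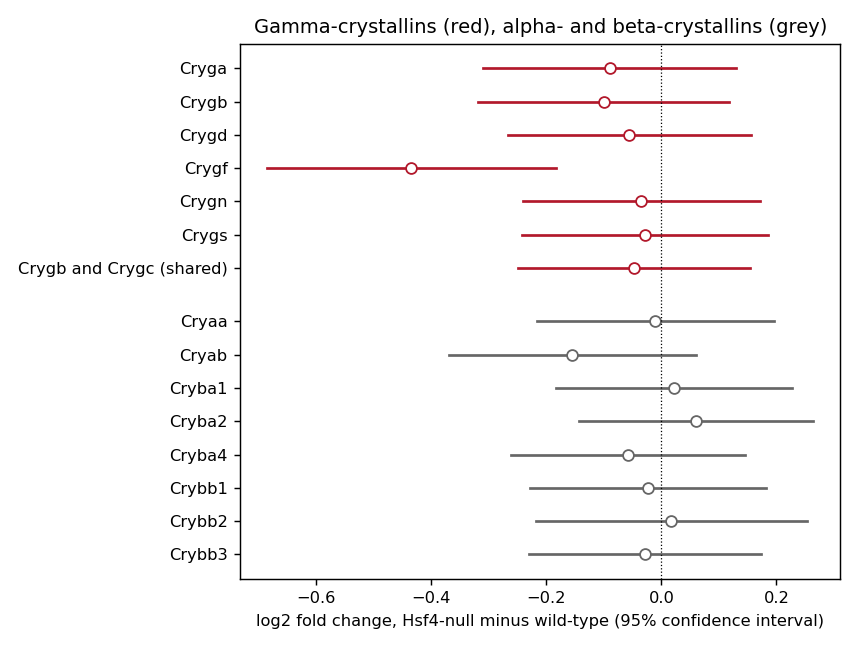
Log2 fold change (horizontal axis), Hsf4-null minus wild-type, of the 7 gamma-crystallin probe sets (red) and the 8 alpha- and beta-crystallins (grey), with 95% confidence intervals from limma on 3 arrays per group. Open points did not pass an adjusted p under 0.05, which holds for all of them, and the interval of Crygf, -0.69 to -0.18, is the only one that leaves out 0.

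The alpha- and beta-crystallins are the genes most like this family in the lens, and each was represented by its brightest probe set. None of the 8 passed limma, and at an unadjusted p under 0.05 the count was 0. Their log2 fold changes ran from -0.15 (Cryab) to 0.06 (Cryba2), with a median of -0.02. Cryaa (-0.01), Crybb1 (-0.02), Crybb3 (-0.03) and Cryba4 (-0.06) were slightly below 0, and Cryba1 (0.02) and Crybb2 (0.02) slightly above, all with standard errors of 0.09 to 0.10. Groups of Hsf4-null arrays lay entirely below the wild-type arrays for 2 of the 8 (Cryab and Cryba4) and entirely above for 1 (Cryba2). Over all probe sets tested, 11.7% had all Hsf4-null arrays below, and 21.1% were separated in either direction. Cryab, alphaB-crystallin, a chaperone of the small heat shock protein family, was at 13.78, 13.76 and 13.65 in Hsf4-null lenses, against 13.85, 13.89 and 13.91 in wild-type lenses.

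Differences of log2 values within an array do not change with a factor common to that array. The mean of the 8 alpha- and beta-crystallins differed by -0.02 between the groups, at 13.98, 13.99 and 13.92 in Hsf4-null lenses, against 13.98, 13.98 and 14.00 in wild-type lenses. Crygf minus this mean was -0.92, -0.62 and -0.77 in Hsf4-null lenses, against -0.35, -0.37 and -0.36 in wild-type lenses. The 2 groups did not overlap and their means differed by -0.41. Crygf minus the mean of the other 6 gamma-crystallin probe sets was -0.76, -0.55 and -0.68 in Hsf4-null lenses, against -0.25, -0.30 and -0.31 in wild-type lenses, a difference of -0.38. The other 6 probe sets minus the alpha- and beta-crystallins gave -0.16, -0.08 and -0.09 in Hsf4-null lenses, against -0.10, -0.07 and -0.05 in wild-type lenses, with overlap. Crygf was singled out after its values were seen, and these differences were not tested. With 3 arrays against 3, an exact two-sided permutation test of 1 value cannot give a p below 0.1.

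**Figure D3:**
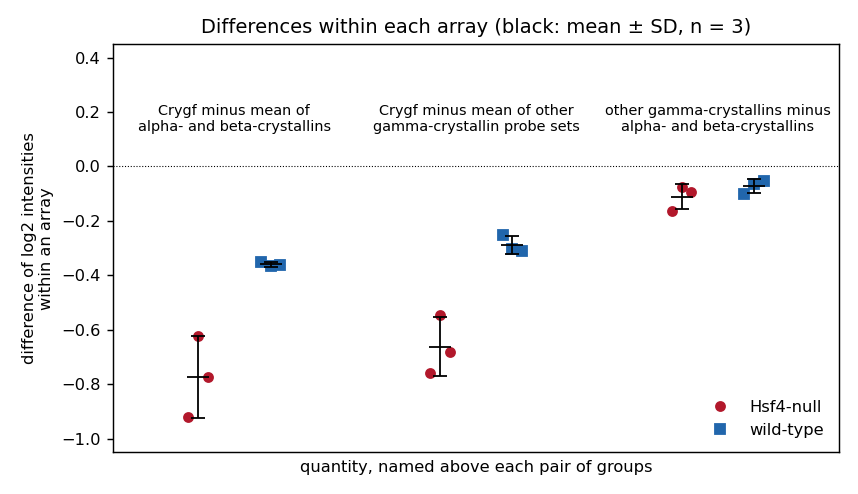
Differences of log2 intensities within each array (vertical axis) for Hsf4-null (red circles) and wild-type (blue squares) arrays, with mean ± SD in black. Crygf lies farther below the other crystallins in Hsf4-null lenses, by -0.62 to -0.92 against the alpha- and beta-crystallins, than in wild-type lenses, where it is -0.35 to -0.37, and the other gamma-crystallin probe sets overlap.

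The family lay at the bright end of the scale, so the differences between the groups are also given for bright probe sets in general. The 7 probe sets held ranks from 2 to 136 of 22626 over the 6 arrays, counted from the brightest. Intensities of different probe sets are not compared as amounts of transcript, since probes differ in how well they bind. In the brightest 1% by the mean over all 6 arrays, 226 probe sets, limma called 0, and 5 had an unadjusted p under 0.05. A class cut on that mean can lose bright probe sets that fell, so it was also cut on the wild-type mean alone, a choice made after seeing the data. Of the 226 brightest in wild-type lenses limma called 2, both as lower in Hsf4-null lenses (Bfsp1 and a probe set shared by Flad1 and Lenep), and 9 had an unadjusted p under 0.05. The median absolute log2 fold change was 0.04 in the class by all arrays and 0.05 in that by wild-type arrays, and 0.13 over all probe sets. The median SD within a group was also lower in the class by all arrays, at 0.05, than over all probe sets, at 0.16. Among the 226 brightest in wild-type lenses, 5 probe sets had a log2 fold change below the -0.43 of Crygf, and among the brightest 100 there were 2. The 5 were those of Bfsp1 (-1.65), Hmgn3 (-0.46) and Gnb1 (-0.46), and 2 shared by Flad1 and Lenep (-1.12 and -0.58), Lenep being a lens epithelial cell protein gene. Of the brightest 500 probe sets by all arrays, 5 were called, all as lower in Hsf4-null lenses. The brightest array controls reached 14.81 to 14.87, above each gamma-crystallin probe set, on each of the 6 arrays. Whether bright probe sets were compressed towards each other was not tested.

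**Figure D4:**
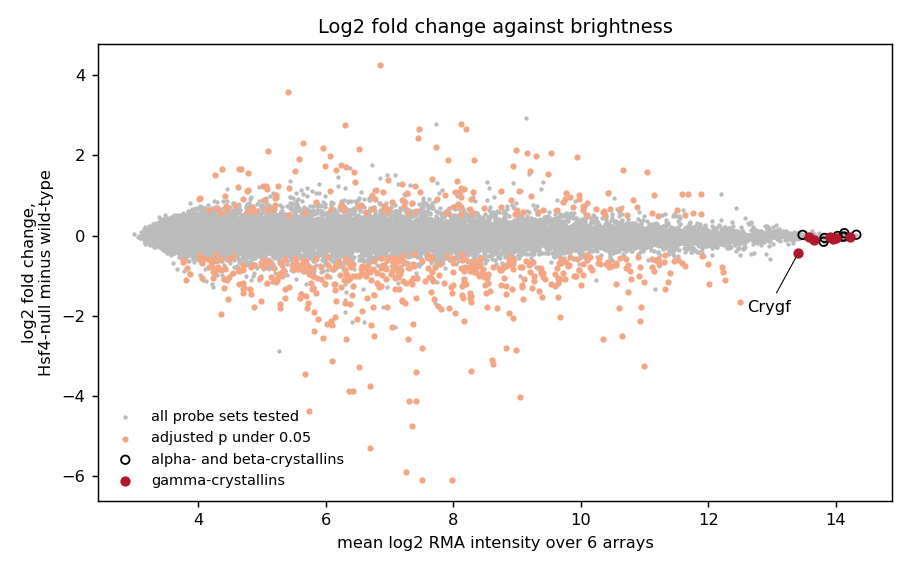
Log2 fold change, Hsf4-null minus wild-type (vertical axis), against the mean log2 RMA intensity over 6 arrays (horizontal axis) for 22626 probe sets (grey, with the 602 called in orange). The gamma-crystallins (red) and the alpha- and beta-crystallins (black rings) lie at the bright end, and Crygf at -0.43 stands below the other crystallins.

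Among other genes of lens fiber cells, the bright Bfsp1 (filensin, a protein of beaded filaments) was called. It was at 11.65, 11.78 and 11.60 in Hsf4-null lenses, against 13.36, 13.34 and 13.28 in wild-type lenses, and all Hsf4-null arrays lay far below all wild-type arrays (log2 fold change -1.65, adjusted p = 0.000131 from limma). Of 5 measured genes of that list, 3 fell (Bfsp1, Hspb1 and Dnase2b), 0 rose and 2 did not pass. The log2 fold change was -0.14 (standard error 0.11) for Mip, the main membrane channel protein of fiber cells, and -0.04 (standard error 0.12) for Gja3, a gap junction connexin.
Of 19 measured genes listed as regulators of crystallin expression in the lens, 4 fell, 0 rose and 15 did not pass. Those that fell were Hsf4 itself, Tdrd7 and Caprin2, which encode proteins of RNA granules, and Prox1, a homeodomain transcription factor of fiber cells. Prox1 was at 8.41, 8.73 and 8.40 in Hsf4-null lenses, against 9.32, 9.22 and 9.50 in wild-type lenses (log2 fold change -0.83, adjusted p = 0.0161 from limma). Tdrd7 fell by 1.34 and Caprin2 by 1.01 on the log2 scale. The median of this list, -0.07, was near the 0.00 of all probe sets. Calls as lower made up 1.94% of all probe sets. At an unadjusted p under 0.05 from limma the count in this list was 8, beside 3480 of all 22626 probe sets. It included Pitx3 (-0.48), Maf (-0.40), Foxe3 (-0.38) and Sox1 (-0.33), which were not called and had wild-type means of 3.96 to 5.80. Neither measured gene of the more distant beta-gamma-crystallin domain family passed, Crybg1 at 0.13 and Crybg3 at 0.30.

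Of the genes that lie near the gamma-crystallin loci and were listed as their neighbours, 16 were measured and 0 passed limma. At an unadjusted p under 0.05 from limma the count was 2, beside 3480 of all 22626 probe sets. The log2 fold changes of the 16 genes ran from -0.29 to 0.50. Between Cryga and Crygf on chromosome 1, 3 genes had a probe set of their own. Idh1, a cytosolic isocitrate dehydrogenase, differed by -0.20 (adjusted p = 0.445 from limma), with all Hsf4-null arrays below the wild-type arrays. Pikfyve, a phosphoinositide kinase (0.16), and Pth2r, a parathyroid hormone receptor (0.50, adjusted p = 0.0745 from limma), lay higher on all Hsf4-null arrays than on any wild-type array, at mean log2 intensities under 5. Groups without overlap, in either direction, were found for 21.1% of all probe sets tested.

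Across the 6 arrays, the mean of the own probe sets of Cryga, Crygb, Crygd and Crygf was followed most closely by Hsp90aa1, a cytosolic Hsp90 chaperone, among 6398 other genes above the array median. Its Pearson correlation was 0.992, and Slc7a6, Glycam1, Snx18 and Golph3 followed at 0.991 to 0.988. The genes closest to Crygs were Mkks, Zdhhc2, Nme6, Cinp and Mtmr2, at 0.987 to 0.977. These are descriptions over 6 arrays, which carry the difference between the genotypes and that between arrays alike. A correlation above 0.95 was reached by 69 genes for the mean of Cryga, Crygb, Crygd and Crygf, and by 20 for Crygs. In that mean the log2 fold change of Crygf, -0.43, was larger in size than those of Cryga (-0.09), Crygb (-0.10) and Crygd (-0.06).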

How the data were processed

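Gene expression in newborn lenses was measured on Affymetrix mouse arrays after amplification of 50 ng of RNA for each. The deposited values are linear intensities, 1 for each probe set and lens sample, which the authors had made by RMA (no version was given in the sources used here). Log2 was taken, 64 of 22690 probe sets were left out as array controls, and 22626 were tested with limma 3.58.1 in R 4.3.3 (group only, 3 Hsf4-null and 3 wild-type arrays), with Benjamini-Hochberg adjustment over all of them. Probe sets were named through the platform annotation, with symbols updated to RefSeq genes of GRCm38.p6.

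The family, the gene lists and the tests were chosen with earlier results of these data known. Named are all gamma-crystallins, the alpha- and beta-crystallins and called genes of each list. Also named are the 5 genes whose profile was closest to the mean of Cryga, Crygb, Crygd and Crygf, and to Crygs. Other genes were named after their values were seen. The procedure was tested on simulated data. Of 100 probe sets changed by a log2 of 1, 76% were recovered, and of 100 changed by 2, 98%, with 7 false calls among 181. These rates do not cover changes as small as those of the gamma-crystallins. Alternatives were the methods' t-test with and without SAM, other variance models, scalings and filters, the replicate block, and leaving out each array. SAM was rewritten here and not run in the software of the methods, and the paper's own count of differentially expressed transcripts was not reproduced with it. The number of arrays limits the precision.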

Additional observations from a re-analysis of the deposited data

How the results depend on the processing

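The count of gamma-crystallin probe sets called, 0 by limma, was 2 by the methods' t-test without adjustment (Crygf, and the probe set shared by Crygb and Crygc), 1 by that test together with SAM (Crygf), 0 by it after Benjamini-Hochberg adjustment and 1 with trended variance (Crygf). It stayed at 0 under the other alternatives, whichever array was left out. The alpha- and beta-crystallins had 0 calls, except 2 by the unadjusted t-test. Over all probe sets, the 602 calls became 2912 by the unadjusted t-test, 85 after its adjustment, 1007 with SAM and 366 with 1 probe set per gene, and 321 to 562 when 1 array was dropped. The lowest, 321, came without Hsf4-null replicate 3, and dropping wild-type replicate 2 gave 335 and wild-type replicate 3 gave 358. With 1 array dropped, the log2 fold change of Crygs was -0.0615 to 0.00596 and changed sign only without Hsf4-null replicate 3, and no other gamma-crystallin probe set changed sign. Same-numbered arrays did not deviate together (correlations of 0.25, -0.21 and -0.08). The labels do not say whether the numbers pair the samples, and 3 arrays per group cannot decide it. With the replicate block 382 probe sets passed, and 0 gamma-crystallins, with an adjusted p of 0.173 for Crygf.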
